A study of Mus musculus with 8 samples.

Results

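The genes examined were 9 interferon response and MHC class I genes, namely H2-K1, H2-D1, B2m, Ifitm3, Bst2, Irf7, Ifit1, Ifit3 and Isg15, out of 48709 gene identifiers in each count file. They were chosen by symbol, with earlier results of these data known, and each symbol matched 1 Ensembl identifier. RNA was sequenced from the cortex of 4 dcKO_hGFAP-Cre mice (hereafter dcKO) and 4 control mice at postnatal day 3, all on a C57BL/6J background, to see how the early postnatal transcriptome differs once BAF155 and BAF170 are lost. BAF155 and BAF170 are the scaffolding subunits of the BAF (mSWI/SNF) complex, a chromatin remodeler. The dcKO mice carried floxed BAF155 and BAF170 on both alleles together with hGFAP-Cre, a transgene in which the human GFAP promoter drives Cre recombinase in radial glia of the dorsal telencephalon. According to the methods, the controls carried hGFAP-Cre too, with a single floxed allele of each gene, while the titles of the samples call them wild type. Microglia, vessels and meninges do not arise from these radial glia. Nothing says which libraries came from littermates, so p-values measure the spread between these libraries.

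Interferons are secreted proteins that bind receptors on the cell surface and activate JAK kinases and STAT transcription factors. Type I signalling assembles STAT proteins and IRF9 into a complex that binds the interferon-stimulated response element (ISRE), whereas type II signalling acts through STAT proteins at the gamma-activated site (GAS). The induced genes include IRF7, which amplifies the response, antiviral effectors and the MHC class I pathway, which displays peptides from inside the cell to CD8 T cells. In the brain, microglia and vessel cells are known for strong expression of class I and interferon-stimulated genes, and neurons for low expression.

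The sequences before the transcription start sites are shown first, because the ISRE is the letter pattern that several of these genes have in common. The promoter windows of RefSeq (build GRCm38.p6, the same build as mm10) hold 250 bases before and 50 after each start, and all 9 genes had one. The ISRE core was searched as GAAANNGAAA on both strands. It was found in the windows of 6 of the 9 genes, Isg15, Ifit1, Ifit3, Bst2, Ifitm3 and B2m, and in 3.44% of all 32851 windows. The 5 stretches of 120 bases below lie before the start and carry the ISRE core in capitals. In Ifit1 and Ifit3 the core reads on the opposite strand.
Isg15, chr4:156200826-156200945, strand minus: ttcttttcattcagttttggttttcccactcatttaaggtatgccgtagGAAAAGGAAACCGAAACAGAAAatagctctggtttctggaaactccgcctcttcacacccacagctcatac
Ifit1, chr19:34640739-34640858, strand plus: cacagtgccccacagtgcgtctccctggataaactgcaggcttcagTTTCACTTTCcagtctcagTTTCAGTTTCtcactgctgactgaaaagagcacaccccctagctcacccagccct
Ifit3, chr19:34583335-34583454, strand plus: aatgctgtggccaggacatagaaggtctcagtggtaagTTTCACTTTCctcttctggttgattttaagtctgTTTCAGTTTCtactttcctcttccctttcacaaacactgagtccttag
Bst2, chr8:71537535-71537654, strand minus: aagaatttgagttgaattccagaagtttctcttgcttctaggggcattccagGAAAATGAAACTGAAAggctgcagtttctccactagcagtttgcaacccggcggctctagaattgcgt
B2m, chr2:122147493-122147612, strand plus: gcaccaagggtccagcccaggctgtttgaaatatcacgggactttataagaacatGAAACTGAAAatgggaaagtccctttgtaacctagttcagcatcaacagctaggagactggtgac
The Isg15 stretch holds 3 overlapping cores, which begin at positions -78, -72 and -66 from the start, and the Bst2 stretch holds 2 overlapping cores, at -130 and -124. The cores of Ifit1 begin at -104 and -85, those of Ifit3 at -156 and -122, and the only core of B2m at -139. The 2 cores of Ifitm3 begin at positions 3 and 20 after its start. The GAS letters TTCNNNGAA were found in the windows of Bst2 and Ifitm3 and in 8.3% of all windows.

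H2-K1 and H2-D1, the classical class I heavy chains, had no match to the ISRE core in their windows. The shorter letters AANNGAAA, which every ISRE core contains and which IRF proteins bind, were searched after these sequences had been seen. They were present in 8 of the 9 genes, all but Irf7, and in 23.9% of all windows. The match in H2-K1 and H2-D1 reads on the opposite strand and is shown in capitals.
H2-K1, chr17:34000418-34000447, strand minus: atctccacagTTTCACTTctgcacctaacc
H2-D1, chr17:35262934-35262963, strand plus: atctcctcagTTTCACTTctgcacctaacc
These 2 stretches have the same letters at 29 of 30 positions, the capitals included, and at 112 of 120 (93.3%) when widened on both sides. The H2-D1 stretch lies before the start given by RefSeq, but a longer transcript in GENCODE has its initial exon across it. A match is a run of letters in a window and was not examined as a binding site in these mice.

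Total counts ranged from 21126713 to 32110285 per library. Of 16525 genes tested, 3074 were higher and 3128 lower in dcKO (adjusted p under 0.05, Benjamini-Hochberg over all genes, from the quasi-likelihood F test that edgeR provides). With library totals in place of TMM normalization, the split was 4584 higher and 2102 lower, since the median change over all genes moved by 0.121 on the log2 scale, and changes are given here on the TMM scale. Smarcc1 and Smarcc2, which encode BAF155 and BAF170, had log2 fold changes of -0.97 and -0.77, with every dcKO library below every control. The defining genes of cortical neurons were present in all libraries, in accord with the labelled tissue, at a summed 1879 to 2004 CPM (the count of a gene scaled to a common library size after TMM normalization) in control and 1039 to 1194 CPM in dcKO. Genes of the choroid plexus, a ventricular tissue, summed to 625 CPM in dcKO 1 and 1191 CPM in dcKO 2, against 8.54 to 24.1 CPM in the other dcKO libraries and 4.38 to 13.9 CPM in control. Mitochondrial transcripts took 2.06% to 3.23% of counts in control and 3.57% to 5.47% in dcKO.

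Of the 9 genes, 7 passed the filter on low counts, and 4 of these 7 were higher in dcKO: H2-K1, B2m, Bst2 and Isg15. Of all genes tested, 18.6% were higher and 18.9% lower by the same test. None of the 7 was lower by edgeR, DESeq2 or limma-voom, and at an unadjusted p under 0.05 none was lower either, as all 7 log2 fold changes were above 0. In the 4 called genes every dcKO library lay above every control library, a separation that 16.7% of all genes showed in that direction. The median log2 fold change was 0.79 over the 7 genes and 0.02 over all 16525. In bulk tissue, more cells of a type and more RNA per cell cannot be told apart.

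**Figure D1:**
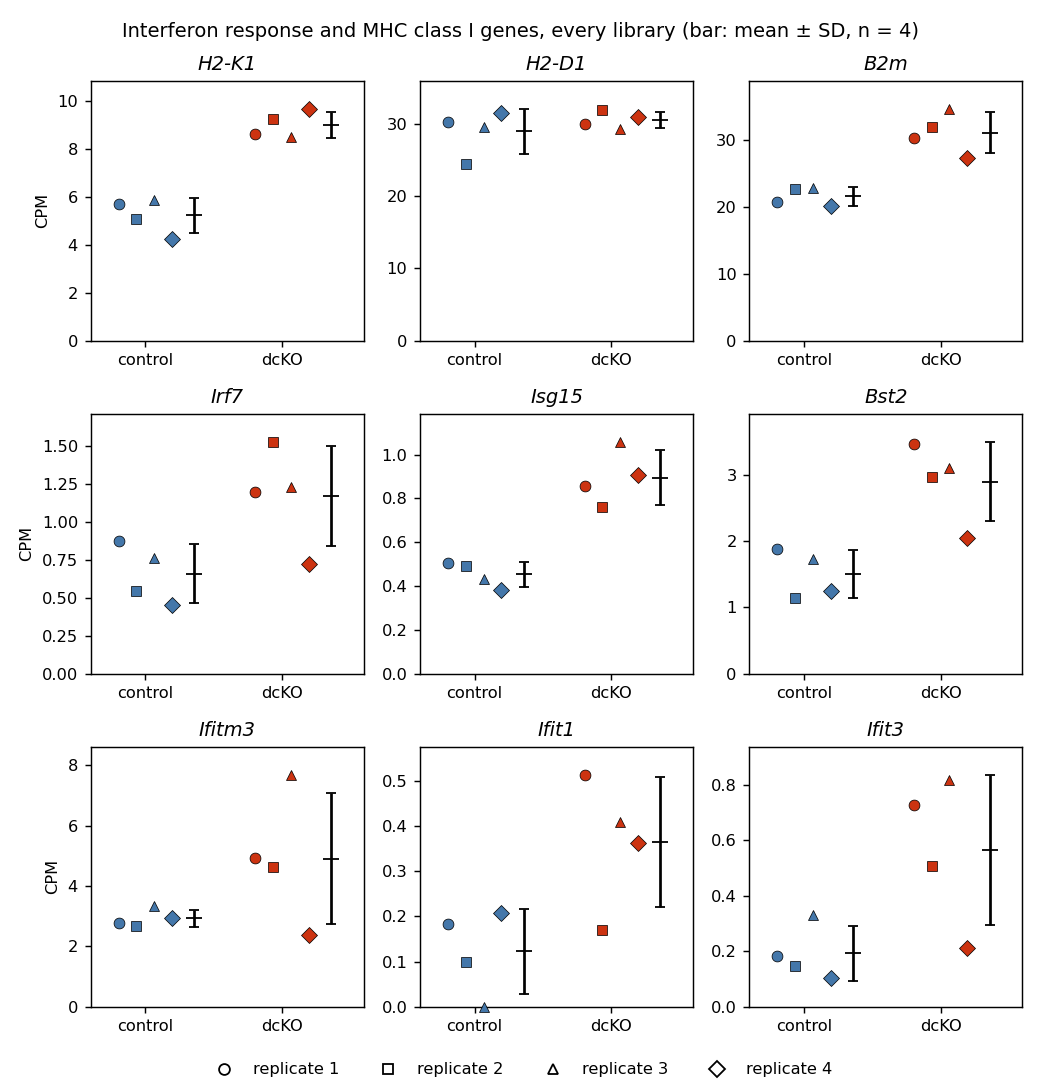
Each panel plots 1 gene, with the group on the horizontal axis and CPM on the vertical axis, and a point for every library, marked by replicate number. Bars give the mean ± SD of 4 libraries. The points of dcKO lie wholly above those of control for H2-K1, B2m, Isg15 and Bst2, and overlap them for H2-D1, Irf7, Ifitm3, Ifit1 and Ifit3.

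The class I molecule consists of a heavy chain, encoded by H2-K1 or H2-D1 among others, and of beta-2-microglobulin, encoded by B2m, without which the heavy chains do not reach the cell surface. H2-K1 (ENSMUSG00000061232, chr17:33996017-34000347 of mm10, minus strand) stood at 5.71, 5.08, 5.84 and 4.23 CPM in control 1 to 4 and at 8.59, 9.24, 8.49 and 9.66 CPM in dcKO 1 to 4. The groups did not overlap, and dcKO 4 was the highest of all libraries. H2-K1 rose from 5.22 ± 0.734 to 8.996 ± 0.552 CPM (SD, n = 4 each), that is, by a log2 fold change of 0.79 (SE 0.14) with an adjusted p of 0.00102 in edgeR's test and p = 0.0286 in the two-sided exact permutation test, the smallest p that 4 against 4 allows.

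H2-D1 (ENSMUSG00000073411, chr17:35262730-35267499, plus strand) encodes the other classical heavy chain of this strain. Its level was 30.2, 24.5, 29.6 and 31.6 CPM in control 1 to 4 and 30.1, 32, 29.3 and 30.9 CPM in dcKO 1 to 4. The groups overlapped almost entirely, with control 2 as the low library. The means of 28.97 ± 3.13 CPM in control and 30.6 ± 1.16 CPM in dcKO (SD, n = 4 each) gave a log2 fold change of 0.08 (SE 0.10, adjusted p = 0.565 in edgeR's test), a difference smaller than the spread of the controls.

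B2m (ENSMUSG00000060802, chr2:122147686-122153083, plus strand) lies within the body of Patl2. It was measured at 20.7, 22.6, 22.8 and 20.1 CPM in control 1 to 4 and at 30.3, 31.9, 34.6 and 27.3 CPM in dcKO 1 to 4. All dcKO libraries were above all controls, with dcKO 3 highest and dcKO 4 lowest among them. B2m rose from 21.5 ± 1.36 to 31.0 ± 3.06 CPM (SD, n = 4 each), with a log2 fold change of 0.53 (SE 0.10, adjusted p = 0.00153 in edgeR's test, p = 0.0286 in the two-sided exact permutation test). H2-K1 and B2m were called in all 18 alternative analyses, and H2-D1 in none of them.

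The unequal change of the heavy chains was examined within each library, as a ratio that no normalization between libraries affects. This ratio and 2 others were formed after the values had been seen. Counts of H2-K1 over those of H2-D1 were 0.189, 0.208, 0.197 and 0.134 in control 1 to 4 and 0.286, 0.289, 0.29 and 0.312 in dcKO 1 to 4. Every dcKO ratio exceeded every control ratio (two-sided exact permutation p = 0.0286, adjusted over 3 ratios p = 0.0857). B2m over H2-D1 averaged 0.754 in control and 1.02 in dcKO (exact permutation p = 0.0571, adjusted p = 0.0857), and H2-K1 over B2m averaged 0.242 and 0.293 (exact permutation p = 0.114, the same after adjustment). None of the 3 ratios passed the adjustment. A ratio that alone reached p = 0.0286, the smallest that this permutation test allows, could not pass it, so the adjustment could not decide on H2-K1 over H2-D1. H2-K1 and H2-D1 are near-identical in parts of their coding sequence, and the treatment of reads that match several genes is not given in the sources used here, so how such reads were divided is uncertain.

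Among the interferon-stimulated genes, Irf7 is the transcription factor that drives the second wave of type I interferon production. Irf7 (ENSMUSG00000025498, chr7:141262706-141266481, minus strand) was at 0.874, 0.542, 0.764 and 0.451 CPM in control 1 to 4 and at 1.20, 1.53, 1.23 and 0.725 CPM in dcKO 1 to 4. Only dcKO 4 lay within the control range, and the other 3 dcKO libraries were above it. The log2 fold change of 0.82 (SE 0.30) missed the threshold in edgeR's test with an adjusted p of 0.0508, and the two-sided exact permutation test gave p = 0.0857. Without dcKO 4 the value was 1.01 with an adjusted p of 0.0166, and without dcKO 2 it was 0.65 with an adjusted p of 0.148. These were the highest and lowest values in edgeR's fits with each replicate left out. DESeq2 gave 0.80 with an adjusted p of 0.0850. An exon of Phrf1 on the opposite strand overlaps Irf7, and without strand in the library kit the reads of the 2 genes cannot be told apart there.

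Isg15 encodes a ubiquitin-like protein that is attached to other proteins during the response. Isg15 (ENSMUSG00000035692, chr4:156199424-156200818, minus strand), whose promoter stretch above holds 3 overlapping ISRE cores, had 11, 10, 13 and 11 counts in control 1 to 4 and 20, 18, 31 and 30 counts in dcKO 1 to 4. In normalized terms these were 0.506, 0.493, 0.432 and 0.382 CPM in control and 0.855, 0.763, 1.06 and 0.906 CPM in dcKO. The lowest dcKO library was above the highest control, at a depth of few counts per library. Isg15 rose from 0.453 ± 0.0576 to 0.895 ± 0.123 CPM (SD, n = 4 each), which is 1.99-fold, or a log2 fold change of 0.99 (SE 0.26, adjusted p = 0.00931 in edgeR's test, exact permutation p = 0.0286). It was called in all 18 alternatives.

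Bst2 encodes tetherin, a membrane protein that holds budding viruses at the cell surface. Bst2 (ENSMUSG00000046718, chr8:71534255-71537456, minus strand) was at 1.89, 1.13, 1.73 and 1.25 CPM in control 1 to 4 and at 3.46, 2.97, 3.10 and 2.05 CPM in dcKO 1 to 4. The groups did not overlap, although dcKO 4 came close to control 1. Bst2 rose from 1.499 ± 0.364 to 2.90 ± 0.600 CPM (SD, n = 4 each), with a log2 fold change of 0.94 (SE 0.23, adjusted p = 0.00772 in edgeR's test, exact permutation p = 0.0286). With dcKO 1 and 2, the libraries with high choroid plexus genes, left out together, it was 0.77 and its adjusted p 0.0947.

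Ifitm3 encodes a transmembrane protein that hinders the fusion of viruses with endosomes. Ifitm3 (ENSMUSG00000025492, chr7:141009586-141010770, minus strand) was at 2.76, 2.66, 3.32 and 2.95 CPM in control 1 to 4 and at 4.92, 4.62, 7.68 and 2.38 CPM in dcKO 1 to 4. The dcKO libraries spread far more than the controls, as dcKO 3 was the highest and dcKO 4 the lowest of all 8 libraries. The log2 fold change of 0.74 (SE 0.28) had an adjusted p of 0.0586 in edgeR's test, and the two-sided exact permutation test gave p = 0.143. Without dcKO 4 it was 0.99 with an adjusted p of 0.00303, and without dcKO 3 it was 0.43 with an adjusted p of 0.179. DESeq2 gave 0.72 with an adjusted p of 0.0397.

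Ifit1 and Ifit3 encode tetratricopeptide repeat proteins of the antiviral response, of which the former binds viral RNA lacking host cap methylation. Neither passed the filter on low counts. Ifit1 (ENSMUSG00000034459, chr19:34640871-34650009, plus strand) had 4, 2, 0 and 6 counts in control 1 to 4 and 12, 4, 12 and 12 counts in dcKO 1 to 4, and Ifit3 (ENSMUSG00000074896, chr19:34583531-34588731, plus strand) had 4, 3, 10 and 3 counts in control and 17, 12, 24 and 7 counts in dcKO. In each gene 3 dcKO libraries were above all controls and 1 was not, which was dcKO 2 for Ifit1 and dcKO 4 for Ifit3. On CPM the two-sided exact permutation test gave p = 0.0857 for Ifit1 and p = 0.0571 for Ifit3. In a fit without any filter, Ifit1 had a log2 fold change of 1.56 (SE 0.56, adjusted p = 0.0395) and Ifit3 of 1.49 (SE 0.46, adjusted p = 0.0150, edgeR's quasi-likelihood test for both). Of the alternatives that tested each gene, 2 of 6 called Ifit1 and 4 of 7 called Ifit3, this fit included. DESeq2 gave an adjusted p of 0.102 for Ifit1 and 0.0462 for Ifit3. Ifit3b, a near-identical copy of Ifit3, had 18 counts in all libraries together, and reads of the 2 genes may have been divided between them.

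**Figure D2:**
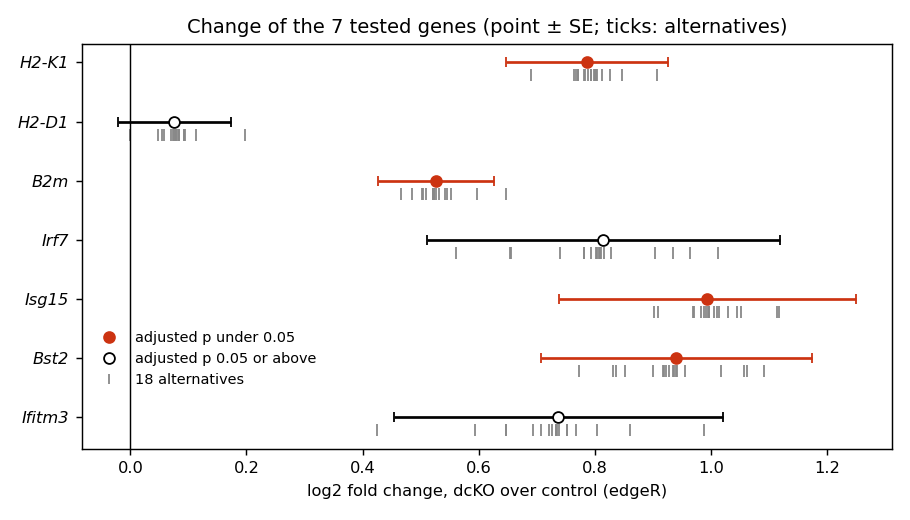
Points give edgeR's log2 fold change of dcKO over control on the horizontal axis for the 7 tested genes, with bars of 1 SE, filled where the adjusted p was under 0.05, and grey ticks give the same value under the 18 alternatives. H2-K1, B2m, Isg15 and Bst2 are filled, and H2-D1 lies nearest to 0, at 0.08.

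Levels were compared between genes only after division by exon length, in the unit TPM (a share of all transcripts). B2m was the highest of the 9 genes, at 96.0 TPM in control and 136.2 TPM in dcKO, followed by H2-D1 at 43.0 and 44.9 TPM. Ifitm3 came next at 16.5 TPM in control and 27.1 TPM in dcKO, with H2-K1 at 6.81 and 11.6 TPM and Bst2 at 6.37 and 12.1 TPM. H2-K1 and Bst2 did not differ beyond their spread in either group and changed places in the order. Isg15 was at 2.30 TPM in control and 4.49 TPM in dcKO, and Irf7, Ifit3 and Ifit1 were lowest, at 0.669, 0.423 and 0.176 TPM in control and 1.16, 1.22 and 0.524 TPM in dcKO. The ranges of Irf7 and Ifit3 overlapped in both groups. The heavy chain that was not called, H2-D1, was thus the higher one in each group.

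The libraries of dcKO differed among themselves, and not in the same way for all genes. Among the 6 interferon-stimulated genes (Irf7, Isg15, Bst2, Ifitm3, Ifit1 and Ifit3), dcKO 4 was the lowest dcKO library for 4 and dcKO 3 the highest for 3. Summed over these 6 genes, the level was 6.40, 5.08, 6.57 and 5.35 CPM in control 1 to 4 and 11.7, 10.6, 14.3 and 6.64 CPM in dcKO 1 to 4. The sum of dcKO 4 was thus barely above that of control 3. The 3 class I genes summed to 52.2 to 58.2 CPM in control and 67.9 to 73.1 CPM in dcKO, with little spread. After the group means were subtracted, Bst2 followed Irf7 (Pearson's r = 0.87 over the 8 libraries) and Ifitm3 followed B2m (r = 0.82), whereas H2-K1 showed no relation to H2-D1 (r = -0.03). These correlations describe 8 libraries that share their normalization.

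Lane 5 of the sequencing run held replicates 1 and 2 of each group, lane 6 held replicate 3 and lane 7 held replicate 4. Mean CPM was higher in dcKO for 9 of 9 genes on lane 5, for 8 on lane 6 and for 7 on lane 7. The exceptions were H2-D1 on lanes 6 and 7 and Ifitm3 on lane 7. Lanes 6 and 7 held 1 library of each group, too few for a test within them. With the lane as a block in edgeR's fit, 6 of the 7 tested genes were called, Irf7 (adjusted p = 0.0295) and Ifitm3 (adjusted p = 0.0384) in addition to the 4, while 3208 of all 16525 genes were higher.

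The genes upstream of the 9 were described by lists, which were also chosen with earlier results of these data known. Their counts are to be read against the 18.6% of all tested genes that were higher and the 18.9% that were lower. Of 16 interferon genes, 14 had no count in any library, Ifng had 5 counts, all in control, and Ifnab had 1 in dcKO. At this depth a count of 0 allows up to 3 counts, or 0.0906 to 0.148 CPM in a library, so lower expression was not detectable. All 6 receptor genes were tested, 2 were higher and 2 lower, and their median log2 fold change was -0.18. Ifnar1, a subunit of the type I receptor, was at 95.6 ± 9.22 CPM in control and 94.1 ± 5.16 CPM in dcKO (log2 fold change -0.02, adjusted p = 0.844), and its partner Ifnar2 fell by 0.33 on the log2 scale (adjusted p = 0.0438). For the type II receptor, Ifngr1 rose by 0.39 on the log2 scale (adjusted p = 0.0206) and Ifngr2 fell by 0.45 (adjusted p = 0.00114). Ifnlr1, of the type III receptor, was higher by 1.83 (adjusted p = 0.0150) at a mean under 1 CPM, with overlapping groups. Its control mean of 0.205 CPM was under the 0.392 CPM of the filter's minimum count, and every dcKO library was above it. Its passing of the filter thus rested on dcKO, where it was high. Il10rb stood at a log2 fold change of -0.33 (adjusted p = 0.184). The receptor genes thus moved in opposite directions.

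Among genes of JAK-STAT signalling, the kinase Jak1 fell by 0.43 on the log2 scale (adjusted p = 0.00136), from 183.6 ± 12.5 to 136.5 ± 9.01 CPM (SD, n = 4 each), with the groups apart. Stat2 and Irf9, which belong to the complex that binds the ISRE, had log2 fold changes of -0.08 and 0.10 and adjusted p of 0.626 and 0.453. Among 4 inhibitors, Pias1 fell by 0.31 (adjusted p = 0.0144). Usp18, which removes ISG15 from proteins and blocks the type I receptor, lay at 0.092 to 0.199 CPM in control and 0.483 to 0.955 CPM in dcKO. No control library had the 0.392 CPM of the minimum count, so Usp18 passed the filter through dcKO alone, had to differ, and was named after its values were seen.

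Other transcription factors of the IRF family numbered 7, of which 6 were tested, 3 were higher and none was lower, with a median log2 fold change of 0.65. At an unadjusted p under 0.05 none was lower either, since all 6 log2 fold changes were above 0. Irf8, a factor of the myeloid lineage, rose from 3.51 ± 0.514 to 7.21 ± 0.574 CPM (SD, n = 4 each; log2 fold change 1.04, SE 0.15, adjusted p = 2.68e-04), and Irf5 from 1.80 ± 0.324 to 3.55 ± 0.756 CPM (log2 fold change 0.98, adjusted p = 0.00325). Irf3, the factor that starts type I interferon transcription, was higher by 0.45 on the log2 scale with overlapping groups (adjusted p = 0.0296). Of 16 sensors of nucleic acids and their adaptors, 14 were tested and 4 were higher, where 18.6% of all genes were: Ifih1, the sensor of long double-stranded RNA (log2 fold change 1.09, adjusted p = 2.82e-04), Dhx58 (0.69), the kinase Ikbke (0.66) and the endosomal Tlr7 (0.60). The median of the list was 0.21, and the RNA sensor encoded by Ddx58 was at -0.31 on the log2 scale (adjusted p = 0.126). Uba7 and Ube2l6, the activating and conjugating enzymes of ISG15, were higher by 1.18 and 0.57 (adjusted p = 0.00720 and 0.0142), while its ligases Herc6 and Trim25 had log2 fold changes of 0.06 and 0.15, with adjusted p of 0.878 and 0.411.

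Of 40 other interferon-stimulated genes, 31 were tested, 13 were higher at an adjusted p under 0.05, where 18.6% of all genes were, and the median log2 fold change was 0.60, where that of all genes was 0.02. For 3 of the 13, no control library reached the CPM of the minimum count, so that they passed the filter through dcKO and had to differ. The largest rises among called genes with a mean of at least 1 CPM were Ifi44 (0.408 ± 0.0637 to 1.79 ± 0.258 CPM, log2 fold change 2.10, SE 0.24, adjusted p = 4.98e-05), Ifitm1, a neighbour and relative of Ifitm3 (1.90, SE 0.40, adjusted p = 0.00290), Trim30a (1.15, adjusted p = 0.00324) and Lgals3bp (1.14, adjusted p = 2.68e-04). Ifitm2, of the same family, had a log2 fold change of -0.60 with overlapping groups (adjusted p = 0.0835). The list was not uniform, as 7 of its 31 tested genes had log2 fold changes below 0. Counting each gene once, 66 of the 93 interferon genes other than the 9 were tested, 23 were higher, 3 of them through the filter in this way, and 4 lower, and their median was 0.32. With dcKO 1 and 2 left out, 13 were higher and 2 lower.

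The machinery of class I presentation comprised 14 genes, all tested, of which 5 were higher and 1 lower, against 18.6% and 18.9% of all genes (median log2 fold change 0.26). Psmb8, a subunit of the immunoproteasome, which cuts proteins into peptides suited to class I, rose from 0.668 ± 0.131 to 1.74 ± 0.267 CPM (SD, n = 4 each; log2 fold change 1.39, SE 0.24, adjusted p = 8.45e-04). Tap1, of the transporter that carries peptides into the endoplasmic reticulum, was higher by 0.69 (adjusted p = 0.00582), and the proteasome activators Psme2 and Psme1 by 0.65 and 0.34 (adjusted p = 0.00152 and 0.0102). Other genes of the same processes missed the threshold, with log2 fold changes of 0.22 for the proteasome subunit Psmb10, 0.30 for Tap2 and 0.00 for Tapbp and adjusted p of 0.218, 0.335 and 0.988. The chaperone Canx, which also serves many other glycoproteins, was lower by a log2 fold change of -0.31 (adjusted p = 0.0171). Nlrc5, the transactivator of class I genes, was at 0.678 ± 0.136 CPM in control and 1.28 ± 0.701 CPM in dcKO (log2 fold change 0.94, adjusted p = 0.0672).

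Of 17 other class I and class I-like genes, 12 were tested and 6 were higher, against 18.6% of all genes, 1 of the 6 having passed the filter through dcKO alone (median log2 fold change 0.69). H2-Q2 rose from 0.473 ± 0.180 to 1.86 ± 0.433 CPM (SD, n = 4 each; log2 fold change 2.004, SE 0.29, adjusted p = 2.81e-04), and H2-T23, which encodes the ligand of inhibitory NKG2A receptors, from 0.817 ± 0.373 to 1.80 ± 0.591 CPM with overlapping groups (1.16, SE 0.35, adjusted p = 0.0221). Mr1 and Cd1d1, which present vitamin metabolites and lipids, were higher by 0.91 and 0.69 (adjusted p = 0.00973 and 0.0158). The value for H2-T22 was 0.18 (adjusted p = 0.603), so heavy chain genes besides H2-D1 also missed the threshold. Many of these genes are near-identical to each other and to H2-K1, and their separate counts are uncertain.

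**Figure D3:**
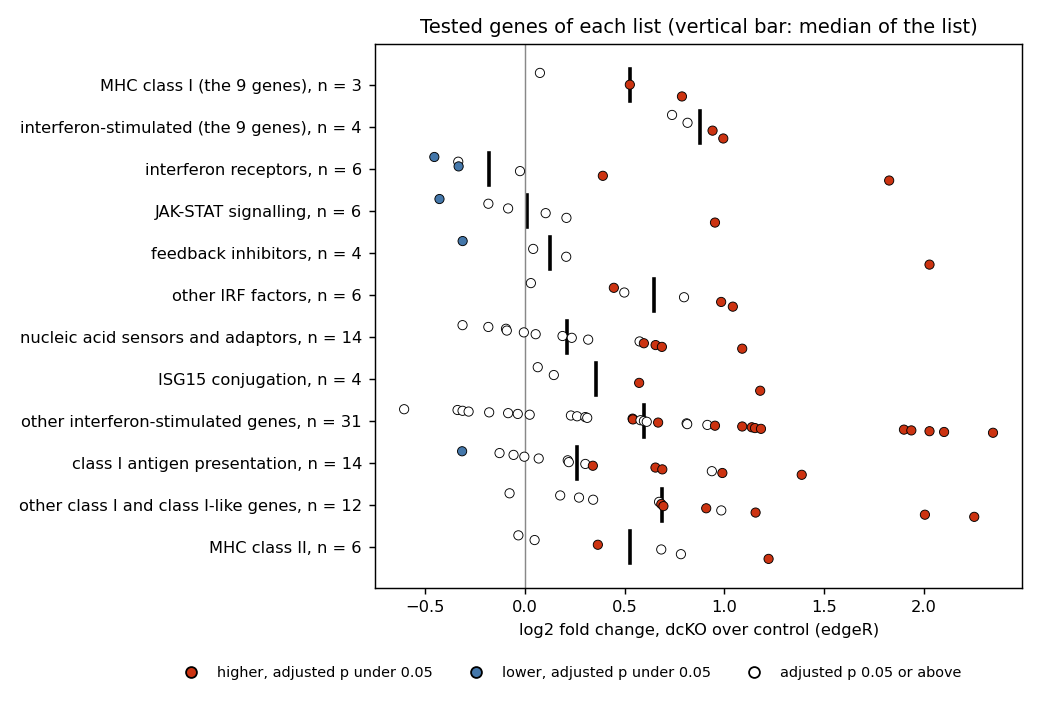
Every tested gene of each list is a point at its log2 fold change of dcKO over control, coloured where the adjusted p was under 0.05, with a vertical bar at the median of the list and a gene of 2 lists drawn in each. Medians lie at -0.18 for receptors and 0.01 for JAK-STAT genes, and at 0.60 for other interferon-stimulated genes and 0.69 for other class I genes.

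Among cells known for these genes, the summed markers of microglia were higher in dcKO and those of endothelium lower. All 15 microglia markers were tested, and 11 were higher, none lower (median log2 fold change 0.63, and 18.6% of all genes higher), with Sall1 as the gene of the list below 0, at -0.02 (adjusted p = 0.915). Their summed level was 180 to 237 CPM in control and 320 to 384 CPM in dcKO, without overlap. Tyrobp, a signalling adaptor, rose by 1.66 on the log2 scale, Aif1 by 1.40, and the complement genes C1qb and C1qa by 1.32 and 1.29, whereas P2ry12 and Tmem119, which mark the resting state, had log2 fold changes of 0.01 and 0.29 (adjusted p = 0.983 and 0.474). The microglia list thus moved unevenly. In dcKO 4, where the sum of the interferon-stimulated genes was the lowest of dcKO, the microglia sum was 320 CPM, the lowest of dcKO yet above every control. Its part in the change of the 9 genes was not tested.

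Macrophages of the brain's borders had 2 of 6 markers higher, 1 of them through the filter by dcKO alone, and summed to 10.3, 7.54, 14.1 and 5.28 CPM in control 1 to 4 and to 37.7, 15.0, 32.1 and 8.12 CPM in dcKO 1 to 4. The 7 genes of meningeal fibroblasts summed to 91.3 to 275 CPM in control and to 439, 152, 335 and 41.3 CPM in dcKO 1 to 4. Both sums were lowest among dcKO libraries in dcKO 4, as was Ifitm3. The sums of microglia, endothelial, pericyte and astrocyte markers were lowest there too. Both sums were highest in dcKO 1, whereas Ifitm3 was highest in dcKO 3. The part of these cells in the result was not tested. Markers of T cells, B cells, neutrophils and monocytes numbered 13, all under the filter, and summed to 0.598 to 0.896 CPM in control and 1.09 to 2.48 CPM in dcKO, with Ly6g at 0 in all libraries. Endothelial markers, another source of class I transcripts, were lower for 6 of 12 genes, at a summed 321 to 381 CPM in control and 174 to 302 CPM in dcKO. Pericyte markers were lower for 2 of 7 genes, Cspg4 and Abcc9. As a sum they overlapped, at 244 to 296 CPM in control and 201 to 293 CPM in dcKO. Astrocyte markers were lower for 1 of 7 genes. The counts of these lists are to be read against the 18.6% of all tested genes that were higher and the 18.9% that were lower. Astrocyte markers summed to 1240 to 1368 CPM in control and to 804, 724, 1712 and 693 CPM in dcKO 1 to 4.

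**Figure D4:**
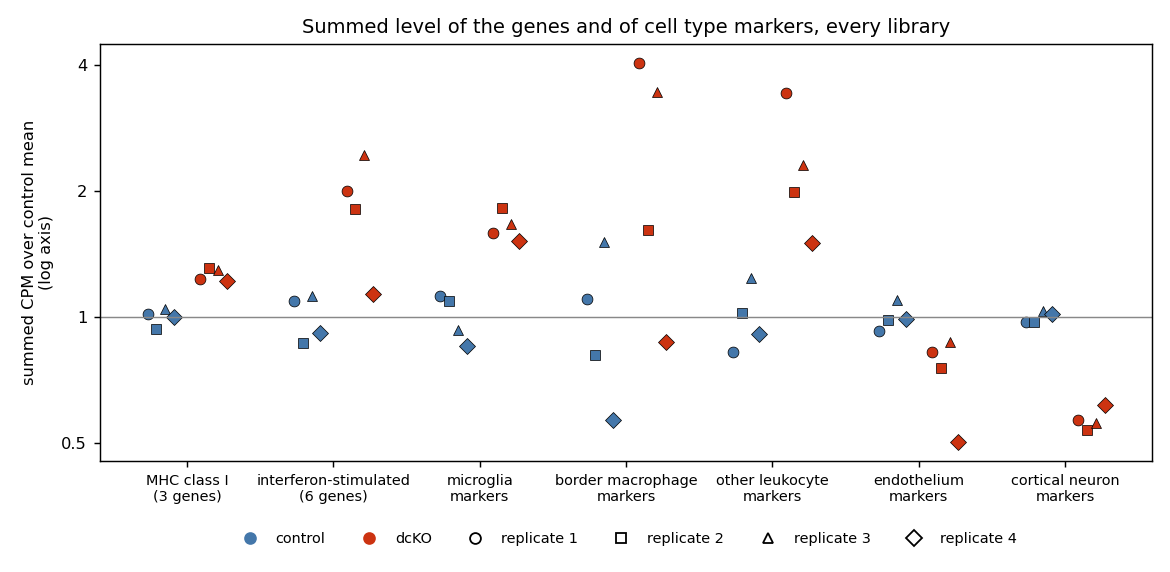
Each point is the summed CPM of a gene group in 1 library, divided by the mean of the 4 controls, on a log2 axis. The sums of dcKO lie above all controls for the 3 class I genes, the 6 interferon-stimulated genes and the microglia markers. Border macrophage markers overlap between the groups, and their dcKO sums were 8.12 to 37.7 CPM before the division. Endothelial and cortical neuron markers lie lower in dcKO.

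Genes with the most similar pattern were sought among 14605 genes at 1 CPM or more, by Pearson's correlation over the 8 libraries with the mean z-score of the tested members of each group. For the interferon-stimulated genes these were Rab3il1 (r = 0.99), Gadd45a (0.98), Pgghg (0.97), Serhl (0.97) and Selenop (0.97). After the group means were subtracted they were Rab3il1 (0.99), Mxra8, Eif2ak2, Suclg2 and Lama5 (0.97), so Rab3il1 led in both. Eif2ak2 encodes the interferon-inducible kinase PKR, and its level did not pass the test between groups (log2 fold change -0.09, adjusted p = 0.710). For the class I genes Pecr (0.99), Disp3, Parp12, Zfp219 and Nrn1 (0.98) were nearest, and Lpcat3 (0.97), Fam107a, Nek2, Tmem106c and 6430571L13Rik (0.93) after subtraction. These correlations rest on 8 libraries and were picked as the highest among all genes searched.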

How the data were processed

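RNA from P3 cortices (4 dcKO_hGFAP-Cre, 4 control) was isolated with TRIZOL and made into libraries with the TruSeq RNA v2 kit. The authors used mm10 as the reference, summarized reads by gene with featureCounts, and deposited raw counts, without normalization. The aligner, gene annotation, strand setting and treatment of reads matching several genes are not given in the sources used here. Of 48709 identifiers, 48349 matched a symbol in GENCODE M21, which uses the same build. Groups were taken from the labels. The counts were tested with edgeR 4.0.16 in R 4.3.3 (TMM normalization, default filter with a minimum count of 10, robust quasi-likelihood F test, Benjamini-Hochberg adjustment over 16525 genes, threshold 0.05), which was tested on simulated data. Exact two-sided permutation tests on CPM used all 70 arrangements of 4 against 4 libraries. TPM was computed from exon lengths of GENCODE. The alternatives were DESeq2 1.42.0, limma-voom (limma 3.58.1), other scalings and filters, mitochondrial genes left out, replicate number or lane as a block, each replicate left out, and dcKO 1 and 2 left out. The 9 genes, the lists and the tests were chosen with earlier results of these data known. From each list, genes with an adjusted p under 0.05 and a mean of at least 1 CPM were eligible for naming. Up to 4 of these, with the largest absolute log2 fold change, were named. So were the genes that define a list and the 5 nearest genes by correlation. Other list genes were named outside this rule, among them Psmb10, Tap2, H2-T22, P2ry12 and Tmem119, which missed the threshold. Log2 values for correlations used a prior count of 2. No pair of libraries agreed within sampling noise. A gene covered by this rule is not reported here.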

Additional observations from a re-analysis of the deposited data

How the results depend on the processing

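In all 18 alternatives H2-K1, B2m and Isg15 were higher in dcKO at an adjusted p under 0.05, and H2-D1 in none, with log2 fold changes from -0.00037 (without control 2) to 0.11 when each replicate was left out. Between 4 and 7 of the 9 genes were higher when each replicate was left out, the 7 without dcKO 4, where H2-K1, B2m, Bst2, Isg15, Irf7, Ifitm3 and Ifit3 were called. Irf7 was called in 6 of 18 alternatives and Ifitm3 in 4. Among the other interferon genes, 4 were lower in the main analysis, 2 with library totals, and from 2 to 6 with each replicate left out. Among the other MHC class I genes 1 was lower, 0 with library totals, and from 0 (without control 2) to 1 with each replicate left out. With dcKO 1 and 2 left out, and so fewer samples, 3 of the 9 genes were higher, 13 other interferon genes were higher and 2 lower, 6 other MHC class I genes were higher and 0 lower, and of all genes 1388 were higher and 1581 lower. The same replicate number marks no stated relation between mice. Deviations of same-numbered libraries correlated at 0.171, -0.0679, 0.213 and -0.0238, and not every library correlated best with its own number. With the replicate number as a block, 5 of the 9 genes were higher, Irf7 being added (adjusted p = 0.0404), and 2932 of all genes were higher and 2982 lower. At this depth Ifit1, Ifit3 and the interferon genes themselves had too few counts for a firm comparison.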

Other observations

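Class II genes, which present peptides to CD4 T cells and are induced by type II interferon, were few and low. Of 7 such genes, 6 were tested and 2 were higher in dcKO, where 18.6% of all tested genes were. The median log2 fold change was 0.52. H2-DMa, which loads peptides onto class II molecules, rose from 7.58 ± 0.501 to 9.76 ± 1.22 CPM (SD, n = 4 each). Its log2 fold change was 0.37 (SE 0.13, adjusted p = 0.0409 in edgeR's quasi-likelihood test). H2-DMb1, its partner, was higher by 1.22 at under 1 CPM (adjusted p = 0.0145 in the same test, named after its value was seen). The control mean of H2-DMb1, 0.281 CPM, was under the 0.392 CPM of the filter's minimum count, and every dcKO library was above it. Its passing of the filter thus rested on dcKO. Log2 fold changes were 0.68 for the invariant chain Cd74 (adjusted p = 0.0858), 0.78 for H2-Ab1 (adjusted p = 0.0605), and 0.05 for the class II transactivator Ciita (adjusted p = 0.925).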
